A study of Mus musculus with 15 samples.

Results

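The 9 genes described here encode C-type lectin receptors of myeloid cells outside the Dectin-2 cluster: Clec7a, Clec12a, Clec10a, Mgl2, Cd209a, Mrc1, Ly75, Clec1a and Clec5a. They were chosen by name, and each symbol matched 1 of the 38924 Ensembl genes counted. All 9 reached more than 1 CPM (counts scaled to library size) in at least 3 libraries and so were among the 14456 genes tested. Each library was made from sorted cells pooled from 5 C57BL/6 mice, all female, naive, untreated and, by the labels, 6 to 8 weeks of age. The 5 subtypes, with 3 libraries each, were splenic CD8+ DCs (CD8+ CD11c+ MHCII+, DC1), splenic CD4+ DCs (DC2), CD103+ DCs (DC1) and CD11b+ DCs (DC2) of the lung-draining lymph node (LN), and splenic Ly6C+ CD11b+ monocytes. LN DCs were sorted as MHCII high, that is as migratory cells, and LN and spleen came from different cohorts of mice, so that organ, cohort and gate cannot be told apart.

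C-type lectin receptors carry a carbohydrate recognition domain or a domain of the same fold, and many of them bring a bound ligand into the endosome for processing. In DCs several are used as handles for antibodies that carry an antigen into the cell. They fall into groups by their cytoplasmic tail. Clec7a (Dectin-1) binds fungal beta-glucan and activates the kinase Syk through a single tyrosine motif, with Card9 downstream. Clec12a carries an inhibitory motif that recruits the phosphatases SHP-1 and SHP-2, encoded by Ptpn6 and Ptpn11. Clec5a has almost no tail of its own and signals through the adaptors DAP12 and DAP10, encoded by Tyrobp and Hcst. Clec10a (MGL1) and Mgl2 bind galactose and N-acetylgalactosamine, Cd209a is a mouse relative of human DC-SIGN, and Clec1a binds melanin of fungal spores. Mrc1, the mannose receptor, and Ly75 (DEC-205) belong to the family of large endocytic receptors with many lectin domains in a row.

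Library depth was 4531243 to 10233914 counts on genes. The markers of the sorts were present in the libraries named for them, though not every list set its own subtype apart. The 5 genes Cd4, Esam, Irf4, Itgam and Sirpa summed to 1478 to 2560 CPM in splenic CD4+ DCs against 66.7 to 175.3 CPM in splenic CD8+ DCs. They summed to 817.9 to 910.5 CPM in LN CD11b+ and 95.9 to 124.6 CPM in LN CD103+ DCs, but to 2278 to 2596 CPM in monocytes. The LN CD11b+ list (Itgam, Sirpa, Irf4, Ccr7 and Fscn1) summed to 5587 to 7103 CPM in its own subtype and to 9518 to 11520 CPM in LN CD103+ DCs. Monocyte markers summed to 5619 to 6249 CPM in monocytes and at most 680.5 CPM in any DC library. B cell markers summed to 243.5 CPM in LN CD103+ replicate 1, against 16.4 and 28.2 CPM in the other LN CD103+ libraries. Without that library, 8 of the 9 genes passed the test between the LN subtypes, the same number as with it. T cell markers were higher in the LN DCs (60.8 to 122.8 CPM) than in splenic DCs (3.64 to 17.3 CPM). Neutrophil markers reached 142.1 to 236.8 CPM in monocytes and at most 5.75 CPM in DCs. In bulk samples, fewer cells of a kind and less RNA per cell cannot be told apart.

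The leading receptor among the 9, by the mean of 3 libraries, was Clec7a in monocytes. It was Cd209a in both splenic DC subtypes and Ly75 in both LN DC subtypes. In TPM (counts per gene length, scaled to one sum in all libraries, and the only scale used here to compare genes), Clec7a made up 55.0% ± 2.61 (SD, n = 3) of the summed level of the 9 genes in monocytes. Ly75 made up 74.5% ± 3.46 in LN CD103+ DCs, and Cd209a 71.8% ± 7.70 in splenic CD4+ DCs. The make-up of splenic CD8+ DCs was more even, with Cd209a at 38.3% ± 12.2, Ly75 at 23.7% ± 10.8 and Clec12a at 20.2% ± 3.44. In splenic CD8+ replicate 3 Ly75 stood above Cd209a (93.8 against 67.95 TPM). LN CD11b+ DCs were the most mixed of the 5, with Ly75 at 31.3% ± 6.62, Cd209a at 21.9% ± 4.33, Clec7a at 15.2% ± 1.26 and Mgl2 at 13.7% ± 2.59. In LN CD11b+ replicate 1 Cd209a stood above Ly75 (112.0 against 98.4 TPM). The summed TPM of the 9 genes was 672.1 to 787.4 in monocytes, above every DC library (267.6 to 566.4).

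**Figure D1:**
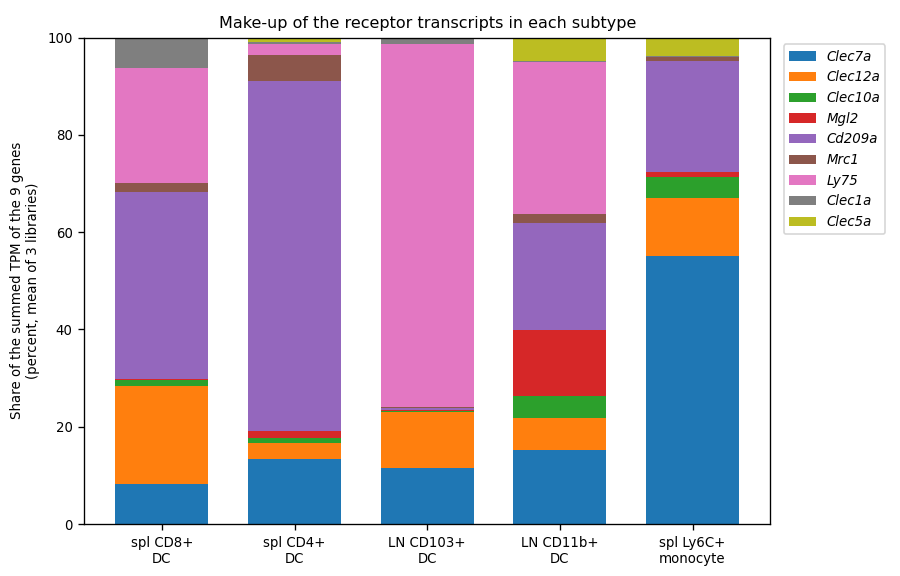
Share of each gene in the summed TPM of the 9 receptor genes (vertical axis, percent, mean of 3 libraries) in each of the 5 subtypes (horizontal axis; spl, spleen). Clec7a takes 55.0% in monocytes, Ly75 74.5% in LN CD103+ DCs and Cd209a 71.8% in splenic CD4+ DCs.

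All 9 genes differed among the 5 subtypes by edgeR's quasi-likelihood test (adjusted p of 4.9e-06 at most), as did 73.5% of all genes tested. For 6 of the 9 genes a single subtype was higher than each of the 4 others in every test, against 18.6% of all genes. These were Clec7a in monocytes (as 9.35% of all genes), Mgl2 in LN CD11b+ DCs (0.747%), Cd209a and Mrc1 in splenic CD4+ DCs (2.52%), Ly75 in LN CD103+ DCs (3.18%) and Clec1a in splenic CD8+ DCs (2.83%). Cd209a was included through a call against monocytes (adjusted p = 0.0386) that was lost in several settings, as given below. Clec12a, Clec10a and Clec5a had their highest mean in monocytes, but in each case the neighbour in the order was not past the threshold. These misses depended on the setting. With edgeR fitted to the compared subtypes alone, all of these steps passed (adjusted p of 0.0166, 0.00384 and 0.00426, in the same order).

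**Figure D2:**
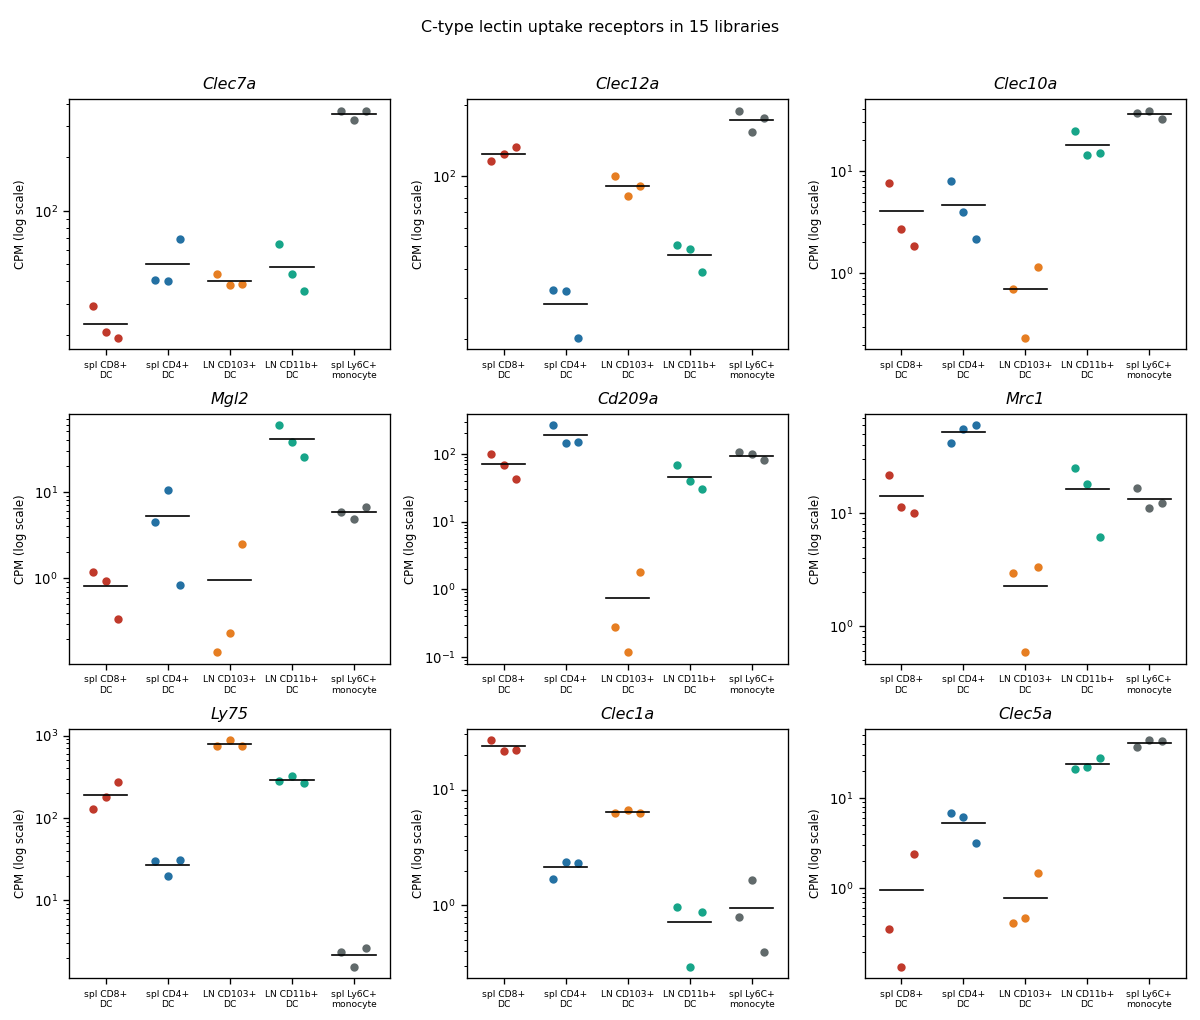
CPM of each of the 9 genes (vertical axes, log scale) in the 15 libraries, by subtype (horizontal axes; spl, spleen). Points are libraries and black lines the means of 3. Clec7a reaches 325.6 to 366.1 CPM in monocytes and at most 69.8 CPM in any DC library, while Ly75 is lowest there, with 1.56 to 2.63 CPM in monocytes.

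Among the receptors that signal through Syk, Clec7a (ENSMUSG00000079293, mm10 chr6:129461591-129472777, minus strand) stood out in monocytes. Its level was 363.7, 325.6 and 366.1 CPM in the 3 monocyte libraries. Splenic CD4+ DCs had 40.6, 40.1 and 69.8 CPM, LN CD11b+ DCs 65.2, 44.3 and 35.4 CPM, LN CD103+ DCs 44.0, 38.2 and 38.4 CPM and splenic CD8+ DCs 28.9, 20.8 and 19.2 CPM. No monocyte library overlapped a DC library, and the 3 subtypes in the middle overlapped each other. The monocyte mean was 7.02-fold that of splenic CD4+ DCs, the nearest subtype (log2 fold change 2.81, SE 0.24, adjusted p = 7.29e-08). Splenic CD4+ and LN CD11b+ DCs did not differ beyond their spread (0.05, SE 0.25, adjusted p = 0.914), nor did LN CD11b+ and LN CD103+ DCs (0.27, SE 0.25, adjusted p = 0.554). Splenic CD8+ DCs were lowest, 1.75-fold below LN CD103+ DCs (0.81, SE 0.25, adjusted p = 0.0136), a call that was lost without splenic CD8+ replicate 2 (adjusted p = 0.0582) or 3 (adjusted p = 0.0597).

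Clec5a (ENSMUSG00000029915, chr6:40574894-40585821, minus strand), the receptor coupled to DAP12 and DAP10, separated monocytes and LN CD11b+ DCs from DC1. It was at 37.0, 44.2 and 42.9 CPM in monocytes and at 20.97, 22.4 and 28.1 CPM in LN CD11b+ DCs. Splenic CD4+ DCs had 6.83, 6.14 and 3.16 CPM. The DC1 libraries were near the limit of detection, with 0.359, 0.135 and 2.41 CPM in splenic CD8+ DCs and 0.419, 0.468 and 1.49 CPM in LN CD103+ DCs. These stood for 25 and 16 counts in all, of which splenic CD8+ replicate 3 gave 21 and LN CD103+ replicate 3 gave 9. Monocytes and LN CD11b+ DCs did not overlap, yet their difference missed the threshold (log2 fold change 0.80, SE 0.43, adjusted p = 0.131). LN CD11b+ DCs were 4.43-fold above splenic CD4+ DCs (2.13, SE 0.46, adjusted p = 0.00164). Splenic CD4+ DCs were in turn 5.57-fold above splenic CD8+ DCs (adjusted p = 0.00381), and the log2 difference of CD8+ minus CD4+ moved from -2.42 to -4.33 without splenic CD8+ replicate 3.

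Clec12a (ENSMUSG00000053063, chr6:129342691-129365303, plus strand), the inhibitory receptor, had another order, in which both DC1 subtypes stood above both DC2 subtypes. It was at 115.3, 123.3 and 133.3 CPM in splenic CD8+ DCs and 100.2, 81.6 and 90.1 CPM in LN CD103+ DCs. LN CD11b+ DCs had 50.7, 48.8 and 38.7 CPM and splenic CD4+ DCs 32.6, 32.2 and 20.3 CPM. Monocytes had 189.6, 153.1 and 176.0 CPM. None of the 5 subtypes overlapped another, although the steps at the top of the order, from monocytes to splenic CD8+ DCs (log2 fold change 0.48, SE 0.19, adjusted p = 0.0547) and on to LN CD103+ DCs (0.45, SE 0.19, adjusted p = 0.0661), missed the threshold. In spleen the DC1 to DC2 ratio was 4.37 (2.13, SE 0.20, adjusted p = 4.28e-07) and in LN 1.97 (0.97, SE 0.20, adjusted p = 0.00243). LN CD11b+ DCs exceeded splenic CD4+ DCs by 1.62-fold (0.70, SE 0.20, adjusted p = 0.0116), and this call was lost without splenic CD4+ replicate 3 (adjusted p = 0.0549).

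The galactose-binding pair lies side by side on chromosome 11, with Mgl2 (ENSMUSG00000040950, chr11:70130329-70137550, plus strand) ending 18.6 kb before Clec10a begins (ENSMUSG00000000318, chr11:70156197-70170834, plus strand). The sequences of the pair are close relatives and only uniquely mapped reads were counted, so a read shared by both is in neither count. Mgl2 was at 58.8, 38.1 and 25.2 CPM in LN CD11b+ DCs. Monocytes had 5.90, 4.86 and 6.71 CPM, and splenic CD4+ DCs 4.51, 10.6 and 0.832 CPM. In DC1 it was at 1.20, 0.944 and 0.344 CPM in spleen and 0.140, 0.234 and 2.49 CPM in LN, or 20 and 18 counts in all. LN CD11b+ DCs lay above every other library, and at 6.99-fold the monocyte mean (log2 fold change of monocytes minus LN CD11b+ DCs -2.81, SE 0.61, adjusted p = 0.00128). Monocytes and splenic CD4+ DCs did not differ beyond their spread (0.14, SE 0.65, adjusted p = 0.892), nor did the 2 DC1 subtypes (0.08, SE 0.95, adjusted p = 0.955).

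Clec10a was highest in monocytes, with 36.2, 38.5 and 32.1 CPM, followed by LN CD11b+ DCs with 24.6, 14.4 and 15.03 CPM. Splenic CD4+ DCs had 7.86, 3.92 and 2.16 CPM and splenic CD8+ DCs 7.65, 2.70 and 1.83 CPM. LN CD103+ DCs had 0.698, 0.234 and 1.16 CPM, or 14 counts in all. Monocytes did not overlap LN CD11b+ DCs but the difference missed the threshold (log2 fold change 0.97, SE 0.44, adjusted p = 0.0779), while the splenic DC subtypes overlapped throughout (-0.22, SE 0.50, adjusted p = 0.789). LN CD11b+ DCs exceeded splenic CD4+ DCs by 3.87-fold (1.93, SE 0.48, adjusted p = 0.00432), and by a log2 difference of 2.57 without splenic CD4+ replicate 1. In DC1 the order of the organs was the other way round, with LN CD103+ DCs 5.82-fold below splenic CD8+ DCs (-2.60, SE 0.68, adjusted p = 0.00251), a difference of -1.75 without splenic CD8+ replicate 1. The pair thus parted in monocytes, where Clec10a had a mean of 31.7 TPM and Mgl2 of 7.19 TPM, against 14.95 and 46.5 TPM in LN CD11b+ DCs.

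Cd209a (ENSMUSG00000031494, chr8:3743395-3748984, minus strand) was highest in splenic CD4+ DCs and nearly without counts in LN CD103+ DCs. It was at 263.2, 146.4 and 149.8 CPM in splenic CD4+ DCs, 104.8, 98.2 and 79.7 CPM in monocytes, 100.3, 68.4 and 42.0 CPM in splenic CD8+ DCs and 68.5, 39.2 and 30.5 CPM in LN CD11b+ DCs. In LN CD103+ DCs only 2, 1 and 11 counts were found, or 0.279, 0.117 and 1.82 CPM. LN CD103+ DCs lay far below all other libraries, by 62.3-fold against LN CD11b+ DCs (log2 fold change -6.10, SE 0.69, adjusted p = 8.74e-07) and by 95.0-fold against splenic CD8+ DCs (-6.70, SE 0.68, adjusted p = 2.59e-08). Without LN CD103+ replicate 3, which gave 11 of the 14 counts, these log2 differences were -7.80 and -8.39, and without replicate 2 they were -5.51 and -6.11. Splenic CD4+ DCs exceeded monocytes by 1.98-fold (monocytes minus CD4+ DCs -0.99, SE 0.37, adjusted p = 0.0386). That call was lost without splenic CD4+ replicate 1 (adjusted p = 0.197) and without monocyte replicate 1, 2 or 3 (adjusted p of 0.0681, 0.0842 and 0.129). It was also lost by limma on log2(TPM + 1) (adjusted p = 0.116) and on log2(TPM + 0.1) (adjusted p = 0.284), and with an added absolute log2 fold change of at least 1. Monocytes and splenic CD8+ DCs did not differ beyond their spread (0.42, SE 0.38, adjusted p = 0.393), nor did splenic CD8+ and LN CD11b+ DCs (adjusted p = 0.226). Monocytes exceeded LN CD11b+ DCs by 2.05-fold (adjusted p = 0.0341), which was lost without LN CD11b+ replicate 2 or 3 (adjusted p of 0.111 and 0.125) or monocyte replicate 1 or 2 (adjusted p of 0.0908 and 0.0787). Cd209a belongs to a cluster of related genes, for which reads shared between copies were likewise not counted.

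The genes of both large endocytic receptors lie on chromosome 2. Ly75 (ENSMUSG00000026980, chr2:60292103-60383303, minus strand) was at 751.2, 883.3 and 736.6 CPM in LN CD103+ DCs and 280.2, 321.4 and 262.8 CPM in LN CD11b+ DCs. Splenic CD8+ DCs had 128.3, 177.8 and 269.9 CPM and splenic CD4+ DCs 30.4, 19.95 and 31.3 CPM. Monocytes had 2.36, 1.56 and 2.63 CPM. Only LN CD11b+ and splenic CD8+ DCs overlapped in that order (log2 fold change 0.59, SE 0.24, adjusted p = 0.062). LN CD103+ DCs exceeded LN CD11b+ DCs by 2.74-fold (1.46, SE 0.24, adjusted p = 4.54e-04) and monocytes by 362.2-fold (monocytes minus LN CD103+ DCs -8.52, SE 0.32, adjusted p = 1.99e-12). In spleen, CD8+ DCs exceeded CD4+ DCs by 7.05-fold (2.82, SE 0.25, adjusted p = 2.78e-07). Of the exon length of Ly75, 3.6% overlaps Gm13571, and reads there were counted for both genes.

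Mrc1 (ENSMUSG00000026712, chr2:14229414-14332057, plus strand) was at 42.0, 55.6 and 60.1 CPM in splenic CD4+ DCs. LN CD11b+ DCs had 25.1, 18.2 and 6.19 CPM, splenic CD8+ DCs 21.6, 11.5 and 9.96 CPM, and monocytes 16.9, 11.1 and 12.2 CPM. LN CD103+ DCs had 2.93, 0.585 and 3.31 CPM. Splenic CD4+ DCs lay above and LN CD103+ DCs below all other libraries, and the 3 subtypes between them overlapped (adjusted p of 0.721 for LN CD11b+ against splenic CD8+ DCs and 0.874 for splenic CD8+ DCs against monocytes). Splenic CD4+ DCs exceeded LN CD11b+ DCs by 3.19-fold (-1.65 for LN minus spleen, SE 0.43, adjusted p = 0.00702). The 11 macrophage markers, of which Mrc1 was not one, had summed CPM of 1059 to 1347 in splenic CD4+ DCs, 649.7 to 955.8 in LN CD11b+ DCs, 445.9 to 505.2 in monocytes, 243.5 to 288.0 in LN CD103+ DCs and 184.0 to 290.9 in splenic CD8+ DCs. Lyve1 was at 0 in splenic CD4+ DCs and in monocytes and no other of the 11 was at 0 in any subtype, and the part of these cells in the level of Mrc1 was not tested.

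Clec1a (ENSMUSG00000033082, chr6:129426684-129452000, minus strand), which lies 9.6 kb from Clec7a and 61.4 kb from Clec12a, marked DC1. It was at 26.9, 21.7 and 22.2 CPM in splenic CD8+ DCs and 6.28, 6.67 and 6.30 CPM in LN CD103+ DCs. Splenic CD4+ DCs had 1.68, 2.39 and 2.33 CPM, LN CD11b+ DCs 0.968, 0.293 and 0.884 CPM, and monocytes 0.787, 1.65 and 0.395 CPM. DC1 libraries lay above all others in both organs. Splenic CD8+ DCs exceeded LN CD103+ DCs by 3.68-fold (LN minus spleen -1.88, SE 0.36, adjusted p = 3.99e-04), and LN CD103+ DCs exceeded splenic CD4+ DCs by 3.01-fold (1.59, SE 0.41, adjusted p = 0.00351). The lowest levels rested on few counts (41 in splenic CD4+ DCs, 24 in monocytes and 15 in LN CD11b+ DCs). The difference of LN CD11b+ minus splenic CD4+ DCs (-1.53, SE 0.52, adjusted p = 0.0242) was lost without splenic CD4+ replicate 2 (adjusted p = 0.0572) or 3 (adjusted p = 0.0529) or LN CD11b+ replicate 2 (adjusted p = 0.109). Endothelial cells also express Clec1a. A set of 7 endothelial markers summed to 97.9 to 151.3 CPM in splenic CD8+ DCs and 118.5 to 121.9 CPM in splenic CD4+ DCs. Clec1a differed by 11.1-fold between these subtypes. In the other subtypes the markers summed to 11.4 to 70.3 CPM. In each splenic DC subtype 3 of the 7 were under 1 CPM, with Emcn at 0 in both and Tek at 0 in CD4+ DCs. The part of endothelial cells in the level of Clec1a was not tested. Clec12b, Clec1b and Clec9a lie between Clec12a and Clec1a on chromosome 6.

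The RefSeq promoter table (GRCm38.p6) held 7 of the 9 genes, all but Clec10a and Clec1a, and 250 bases before the start nearest to the counted gene's start were searched. The letters AGAGGAA or TTCCTCT on the other strand, a core of the sites bound by the myeloid factor PU.1, were found in Clec7a, Clec12a, Mgl2, Clec5a and Mrc1, and in 8.65% of the 27025 genes of the table. The RefSeq start of Clec12a lies 7553 bases from the counted one. The longer GAGGAAGT, or ACTTCCTC on the other strand, which overlaps AGAGGAA where an A precedes it, was found in none of the 7 and in 2.44% of all genes. A match of letters is a description of the window and shows no binding. The windows of the 4 members with a match and a start within 28 bases of the counted one are given 5′ to 3′ on the gene's strand, with the matches in capitals. They are shown as the windows that hold the match, from genes with unlike orders of their levels: Clec7a and Clec5a with monocytes on top, Mgl2 with LN CD11b+ DCs and Mrc1 with splenic CD4+ DCs.
Clec7a, chr6:129472780-129473029 (minus strand): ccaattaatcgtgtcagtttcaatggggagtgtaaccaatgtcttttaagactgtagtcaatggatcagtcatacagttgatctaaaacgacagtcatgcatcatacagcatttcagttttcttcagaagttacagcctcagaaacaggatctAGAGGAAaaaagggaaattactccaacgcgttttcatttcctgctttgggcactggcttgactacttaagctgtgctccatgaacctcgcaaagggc
Mgl2, chr11:70130107-70130356 (plus strand): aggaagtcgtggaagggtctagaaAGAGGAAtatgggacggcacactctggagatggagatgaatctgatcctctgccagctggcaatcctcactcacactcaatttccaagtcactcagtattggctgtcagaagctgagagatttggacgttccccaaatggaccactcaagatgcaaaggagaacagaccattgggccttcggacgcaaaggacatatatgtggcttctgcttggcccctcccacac
Clec5a, chr6:40585806-40586055 (minus strand): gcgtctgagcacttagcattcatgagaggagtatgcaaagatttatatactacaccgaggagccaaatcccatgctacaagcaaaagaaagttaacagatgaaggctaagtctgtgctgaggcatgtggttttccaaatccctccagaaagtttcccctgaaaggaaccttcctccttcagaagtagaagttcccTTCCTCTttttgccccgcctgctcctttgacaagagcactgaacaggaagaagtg
Mrc1, chr2:14229164-14229413 (plus strand): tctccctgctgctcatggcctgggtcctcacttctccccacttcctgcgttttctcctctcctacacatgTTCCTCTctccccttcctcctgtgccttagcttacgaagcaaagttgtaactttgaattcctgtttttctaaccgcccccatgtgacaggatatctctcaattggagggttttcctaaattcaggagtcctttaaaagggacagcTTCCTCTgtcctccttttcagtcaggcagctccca

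DC1 and DC2 were compared within each organ to ask which receptors follow the lineage. In spleen 8 of the 9 genes differed between CD8+ and CD4+ DCs, against 27.4% of all genes, and in LN 8 of 9 differed between CD103+ and CD11b+ DCs, against 12.9% of all genes. In both organs 3 genes, Ly75, Clec12a and Clec1a, were higher in DC1, as were 13.1% of all genes in spleen and 5.22% in LN. In each organ 5 were lower (14.4% and 7.73% of all genes), of which Mgl2, Cd209a, Clec5a and Mrc1 were lower in both. Clec7a was lower in DC1 in spleen by 2.18-fold (log2 fold change -1.12, SE 0.25, adjusted p = 0.00273), with -0.27 in LN. Clec10a was lower in DC1 in LN by 25.8-fold (-4.75, SE 0.66, adjusted p = 2.76e-05), with -0.22 in spleen. The median log2 fold change of the 9 genes was -1.12 in spleen and -2.92 in LN, against 0.00 and -0.01 over all genes tested.

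The splenic differences of Mgl2 and Cd209a were the least stable of these. Mgl2 was 6.41-fold lower in CD8+ DCs (log2 fold change -2.66, SE 0.81, adjusted p = 0.0161), but the libraries overlapped. Without splenic CD4+ replicate 2 its difference was -1.74 (adjusted p = 0.14), and without splenic CD8+ replicate 3 it was -2.28 (adjusted p = 0.0742). Cd209a was 2.66-fold lower in CD8+ DCs (-1.41, SE 0.37, adjusted p = 0.00985), and the call was lost without splenic CD4+ replicate 1 (adjusted p = 0.0548) or splenic CD8+ replicate 3 (adjusted p = 0.0546). Within the splenic CD8+ libraries, replicate 1 was highest and replicate 3 lowest for Cd209a, Clec10a, Mgl2, Mrc1 and Clec7a. The 5 CD4+ DC markers had the same order (175.3, 97.5 and 66.7 CPM). Clec5a, also lower in CD8+ DCs, did not follow it, with replicate 3 highest (0.359, 0.135 and 2.41 CPM, 25 counts in all). For Ly75 and Clec12a replicate 3 was highest and replicate 1 lowest, as for the 6 markers of CD8+ DCs (3653, 4420 and 5773 CPM). Clec1a, also higher in CD8+ DCs, had replicate 1 highest instead (26.9, 21.7 and 22.2 CPM). In splenic CD4+ DCs replicate 1 was also highest for Cd209a (263.2, 146.4 and 149.8 CPM) and Clec10a (7.86, 3.92 and 2.16 CPM). Mgl2 was highest there in replicate 2, and Mrc1 and Clec7a in replicate 3. The CD4+ DC markers were lowest there in replicate 1 (1478, 2560 and 2382 CPM). Same-numbered libraries of both splenic DC subtypes deviated together over all genes tested (correlations of 0.162, 0.339 and 0.375). Over the 3 libraries the CD4+ DC markers of CD8+ DCs were 5.29% of their mean level in CD4+ DCs, while Cd209a was at 37.7%, Mrc1 at 27.3%, Mgl2 at 15.6% and Clec10a at 87.3%. The part of such cells in these differences was not tested. In LN, where none of the differences named lost its call without any 1 library, Mgl2 was 42.7-fold lower in CD103+ DCs (-5.53, SE 0.79, adjusted p = 7.65e-05), Clec5a 30.1-fold lower (-4.95, SE 0.63, adjusted p = 1.2e-05) and Mrc1 7.24-fold lower (-2.92, SE 0.52, adjusted p = 7.29e-04). Mgl2 and Clec5a differed by -7.62 and -5.68 without LN CD103+ replicate 3. In LN CD11b+ DCs the 6 markers of CD8+ DCs stood at 33.1% of their LN CD103+ level. Ly75 was at 36.45% of its level there, Clec12a at 50.8% and Clec1a at 11.15%. The part of CD103+ DCs in these levels was not tested.

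The difference between the organs in the lineage effect was tested as an interaction, the LN difference of DC1 minus DC2 less that of spleen. It passed the threshold for 4 of the 9 genes, against 11.2% of all genes (5.17% positive and 6.03% negative), and was negative for all 4. Cd209a (-4.69, SE 0.78, adjusted p = 2.25e-04) and Clec10a (-4.53, SE 0.83, adjusted p = 9.4e-04) had a more negative difference of DC1 minus DC2 in LN than in spleen. Ly75 (-1.36, SE 0.35, adjusted p = 0.015) and Clec12a (-1.15, SE 0.28, adjusted p = 0.0111) were higher in DC1 in both organs, by less in LN. For Clec7a (0.85, adjusted p = 0.134), Mgl2 (-2.87, adjusted p = 0.121), Clec5a (-2.54, adjusted p = 0.0643), Mrc1 (-1.05, adjusted p = 0.354) and Clec1a (-0.34, adjusted p = 0.81) the interaction missed the threshold. That of Clec5a passed it by DESeq2 (adjusted p = 0.0162), and those of Clec5a and Mgl2, for 6 of 9 genes in all, without the filter on low counts (adjusted p = 0.00167 and 6.77e-04), by limma on log2(TPM + 1) (0.0126 and 0.0172) and without LN CD103+ replicate 3 (0.0371 and 0.0172). Clec5a also passed without splenic CD8+ replicate 1 (0.034) or 2 (0.0198), and Mgl2 without splenic CD4+ replicate 2 (0.0363). Leaving out 1 library moved the interaction of Clec5a between -3.27 and -0.62 and that of Mgl2 between -4.96 and -2.35. The interaction of Cd209a was -6.39 without LN CD103+ replicate 3 and -4.10 without replicate 2, and that of Clec10a was -3.68 without splenic CD8+ replicate 1 and -5.17 without splenic CD4+ replicate 1.

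**Figure D3:**
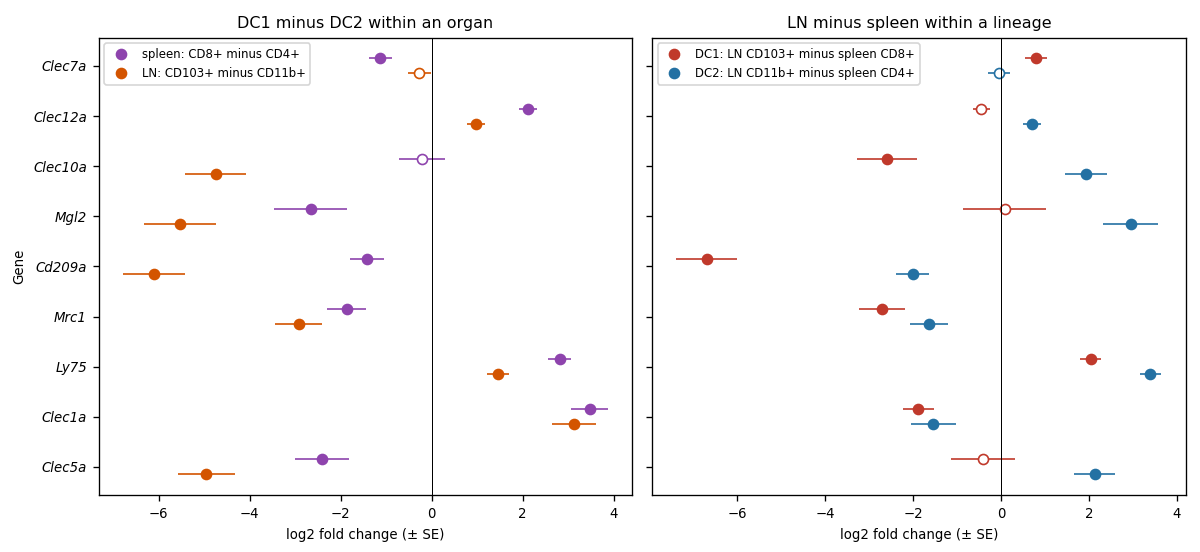
Log2 fold change (horizontal axes) with its SE for each of the 9 genes (vertical axis), DC1 minus DC2 in spleen and in LN on the left and LN minus spleen in DC1 and in DC2 on the right. Filled points passed an adjusted p of 0.05 and open points did not. On the left Ly75, Clec12a and Clec1a lie right of 0 in both organs; on the right Ly75 lies right of 0 in both lineages and Cd209a, Mrc1 and Clec1a left.

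Between the organs, 6 of the 9 genes differed in DC1 (LN CD103+ minus splenic CD8+ DCs, against 45.6% of all genes) and 8 of 9 in DC2 (LN CD11b+ minus splenic CD4+ DCs, against 33.1%). In DC1 2 were higher in LN (23.8% of all genes) and 4 lower (21.8%), and in DC2 5 were higher (19.3%) and 3 lower (13.8%). Ly75 was higher in LN in both lineages, by 4.12-fold in DC1 (log2 fold change 2.04, SE 0.24, adjusted p = 2.26e-06) and 10.6-fold in DC2 (3.40, SE 0.25, adjusted p = 2.75e-08). Cd209a, Mrc1 and Clec1a were lower in LN in both. For Mrc1 the LN level was 6.31-fold lower in DC1 (-2.70, SE 0.52, adjusted p = 3.09e-04), and for Cd209a it was 4.05-fold lower in DC2 (-2.01, SE 0.38, adjusted p = 5.58e-04). Mgl2 was 7.68-fold higher in LN DC2 than in splenic DC2 (2.95, SE 0.62, adjusted p = 0.00157), and by 3.88 on the log2 scale without splenic CD4+ replicate 2. The median over the 9 genes was -0.45 in DC1 and 0.70 in DC2, against 0.00 and 0.05 over all genes. Across the 12 DC libraries, as a description, lineage took 82.7% of the variance of log2 CPM for Clec12a, 76.5% for Clec1a and 75.3% for Clec5a, organ took 59.4% for Ly75 and 47.6% for Cd209a, and the spread between replicates took 30.8% for Clec7a.

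Monocytes were compared with each DC subtype. They differed from splenic CD8+ DCs in 6 of the 9 genes (42.1% of all genes), from splenic CD4+ DCs in 7 (48.0%), from LN CD103+ DCs in 9 (53.2%) and from LN CD11b+ DCs in 5 (47.8%). These comparisons share the monocyte libraries. Only the monocyte libraries were summed from separate runs. By the paper, monocytes were enriched with CD11b beads and DCs with CD11c beads before the sort. Cell type, runs and beads thus cannot be told apart in these comparisons. Higher in monocytes were 4 of the 9 genes against splenic CD8+ DCs (20.4% of all genes), 4 against splenic CD4+ DCs (23.8%), 7 against LN CD103+ DCs (24.6%) and 3 against LN CD11b+ DCs (21.3%). Lower were 2 (21.7%), 3 (24.2%), 2 (28.6%) and 2 (26.5%), in the same order. Clec7a was higher and Ly75 lower in monocytes in all 4. Among the 7 genes higher than in LN CD103+ DCs were Cd209a by 127.4-fold, Clec5a by 52.2-fold and Clec10a by 51.1-fold (log2 fold changes 7.12, 5.75 and 5.72, SE 0.68, 0.63 and 0.66), and without LN CD103+ replicate 3 the differences of Cd209a and Clec5a were 8.82 and 6.48. Without LN CD103+ replicate 2 that of Cd209a was 6.53. Against LN CD11b+ DCs, where 4 to 7 of the 9 passed under other settings, Clec7a, Clec12a and Cd209a were higher in monocytes (2.86, 1.90 and 1.02) and Ly75 and Mgl2 lower (-7.07 and -2.81). The 7 monocyte markers of LN CD11b+ DCs stood at 10.01% of their monocyte level, and S100a8 and S100a9 were at 0 there. Clec5a stood at 57.6% of its monocyte level, Clec10a at 50.6% and Clec7a at 13.7%. The part of monocytes in these levels was not tested. Between the subtypes of unlike lineage and organ, 8 of 9 genes differed for LN CD103+ minus splenic CD4+ DCs (47.0% of all genes) and 6 of 9 for LN CD11b+ minus splenic CD8+ DCs (39.9%). Of the former, Mgl2 (-2.58, SE 0.82, adjusted p = 0.0121) overlapped between the groups and lost its call without splenic CD4+ replicate 2 (adjusted p = 0.111) or LN CD103+ replicate 1 (adjusted p = 0.0549) or 2 (adjusted p = 0.0637).

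Of 7 genes of adaptors, kinases and phosphatases that C-type lectin receptors signal through, Syk, Fcer1g and Tyrobp were higher in DC2 than in DC1 in both organs, and Syk, Fcer1g, Card9 and Hcst were higher in monocytes than in each DC subtype. Syk, the kinase that Clec7a activates, stood at 748.8, 840.1 and 783.8 CPM in monocytes. Splenic CD4+ DCs had 437.8, 596.3 and 452.6 CPM and splenic CD8+ DCs 164.1, 174.4 and 107.0 CPM. LN CD11b+ DCs had 410.8, 465.3 and 459.5 CPM and LN CD103+ DCs 176.1, 194.6 and 147.0 CPM. It was lower in DC1 in spleen (log2 fold change -1.74, SE 0.20, adjusted p = 5.13e-06) and in LN (-1.37, SE 0.20, adjusted p = 1.41e-04), and did not pass the threshold between organs in either lineage (0.22 in DC1 and -0.15 in DC2). Fcer1g, the Fc receptor gamma chain that many lectin receptors use as adaptor, reached 1206 ± 64.2 CPM (SD, n = 3) in monocytes, against 363.6 ± 51.7 in splenic CD4+, 304.7 ± 59.0 in LN CD11b+, 88.4 ± 29.8 in splenic CD8+ and 81.9 ± 1.19 in LN CD103+ DCs. Its DC1 minus DC2 differences were -2.04 in spleen and -1.90 in LN (SE 0.22 in both, adjusted p = 2.51e-06 and 1.36e-05).

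Of the adaptors of Clec5a, Tyrobp followed the same lineage split, with 1517 ± 383.7 CPM in splenic CD4+, 831.8 ± 159.9 in LN CD11b+, 399.0 ± 113.3 in splenic CD8+ and 386.0 ± 23.2 in LN CD103+ DCs. Monocytes, at 1758 ± 125.7 CPM, did not differ from splenic CD4+ DCs beyond their spread (0.21, SE 0.23, adjusted p = 0.476). Hcst was low, from 1.59 ± 0.142 CPM in LN CD103+ DCs to 12.8 ± 1.58 CPM in monocytes, and did not pass the threshold between DC1 and DC2 in spleen (0.29, adjusted p = 0.552) or LN (-0.88, adjusted p = 0.133). Card9, downstream of Syk, was at 35.3 ± 5.11 CPM in monocytes and 4.97 ± 1.70 to 13.96 ± 3.41 CPM in DCs, lower in DC1 in spleen (-1.48, SE 0.33, adjusted p = 0.003) and at -0.01 (SE 0.32, adjusted p = 0.99) in LN.

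Of the phosphatases recruited by Clec12a, Ptpn6 was at 1238 ± 328.6 CPM in splenic CD4+ DCs and 345.2 ± 86.9 in splenic CD8+ DCs (-1.84 for CD8+ minus CD4+, SE 0.22, adjusted p = 6.37e-06), opposite in sign to the difference of Clec12a. In LN it was at 441.0 ± 35.3 CPM in CD103+ and 481.4 ± 28.4 in CD11b+ DCs (-0.13, SE 0.22, adjusted p = 0.785). Ptpn11 was higher in splenic CD8+ than CD4+ DCs (43.8 ± 4.53 against 26.8 ± 8.19 CPM, 0.71, SE 0.23, adjusted p = 0.0273) and at 0.54 (SE 0.23, adjusted p = 0.148) in LN.

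**Figure D4:**
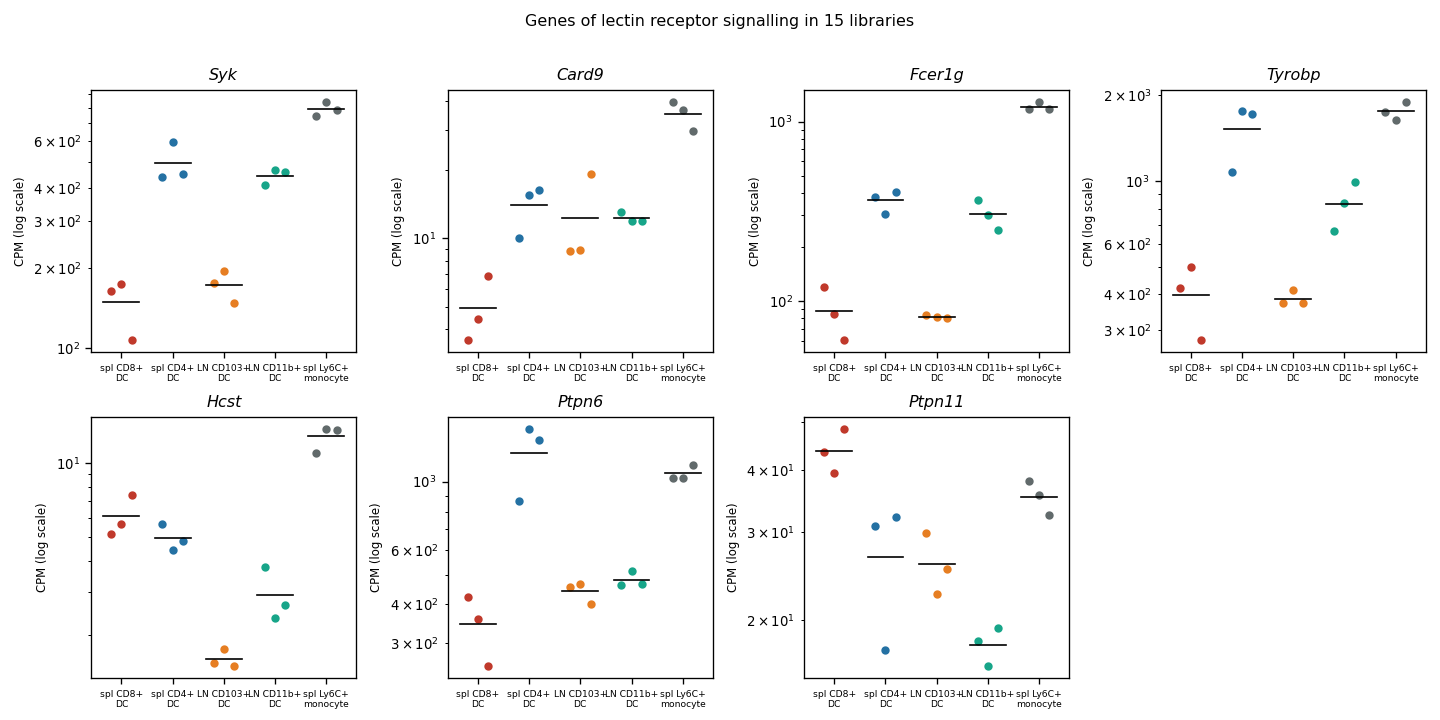
CPM of 7 signalling genes (vertical axes, log scale) in the 15 libraries, by subtype (horizontal axes; spl, spleen), with points for libraries and black lines for means of 3. Fcer1g stands at 1206 CPM in monocytes on average and at 81.9 to 88.4 CPM in the DC1 subtypes, and Ptpn6 at 1238 CPM in splenic CD4+ DCs.

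Over a list of 28 genes of lectin receptor signalling, all tested, 17 differed in spleen between CD8+ and CD4+ DCs, 4 higher and 13 lower (27.4% of all genes differed), and 8 in LN between CD103+ and CD11b+ DCs, 1 higher and 7 lower (12.9% of all genes). The median log2 fold changes of the list were -0.47 and -0.11, against 0.00 and -0.01 over all genes. The Src family kinase Fgr had the most negative difference of the list in both organs, at 92.2 ± 39.9 against 632.3 ± 170.3 CPM in spleen (-2.78, SE 0.27, adjusted p = 1.15e-06) and 21.6 ± 5.07 against 187.3 ± 25.6 CPM in LN (-3.12, SE 0.28, adjusted p = 1.15e-06). The exchange factors Vav3 and Vav1 had the largest positive differences in spleen (1.17 and 0.89). Src itself was the gene with the largest organ difference, at 125.6 ± 31.6 CPM in LN CD103+ against 3.48 ± 2.38 in splenic CD8+ DCs (5.18, SE 0.42, adjusted p = 4.4e-08), and 27.3 ± 1.38 in LN CD11b+ against 1.89 ± 1.504 CPM in splenic CD4+ DCs (3.84, SE 0.49, adjusted p = 6.14e-06). Nfatc2 and Pik3ap1, the adaptor BCAP, were lower in LN than in spleen in DC1 (-2.61 and -2.42) and DC2 (-2.28 and -2.12). Between organs 20 of the 28 differed in DC1, 7 higher and 13 lower in LN (45.6% of all genes differed), and 15 in DC2, 3 higher and 12 lower (33.1%). In monocytes 17 were higher (20.4% of all genes) and 3 lower (21.7%) than in splenic CD8+ DCs. Against splenic CD4+ DCs 13 were higher (23.8%) and 5 lower (24.2%). Against LN CD103+ DCs 21 were higher (24.6%) and 4 lower (28.6%), and against LN CD11b+ DCs 22 were higher (21.3%) and 3 lower (26.5%). In either direction 42.1%, 48.0%, 53.2% and 47.8% of all genes differed in these comparisons. The medians of these were 1.02, 0.42, 1.44 and 1.33, against -0.04, -0.01, -0.05 and -0.07 over all genes. Prkcd, the kinase PKC-delta that links Syk to Card9, was at 1362 ± 42.7 CPM in monocytes against 357.1 ± 32.6 in splenic CD4+ DCs (1.93, SE 0.17, adjusted p = 6.54e-08).

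Of 28 further genes with lectin-type domains, 19 were tested. In spleen 14 differed between CD8+ and CD4+ DCs, 6 higher and 8 lower (27.4% of all genes differed), and in LN 5 differed between CD103+ and CD11b+ DCs, 3 higher and 2 lower (12.9%). Clec9a, which binds actin of dead cells and is 1 of the 6 markers of CD8+ DCs used above, was at 34.5 ± 4.72 CPM in LN CD103+ against 3.09 ± 1.33 in LN CD11b+ DCs (3.51, SE 0.26, adjusted p = 9.77e-08). Its level was 287.6 ± 19.9 CPM in splenic CD8+ DCs, against 1.76 ± 0.0958 in monocytes. Cd207, which encodes langerin, was at 39.96 ± 5.75 CPM in splenic CD8+ DCs against 0.240 ± 0.210 in splenic CD4+ DCs (7.21, SE 0.74, adjusted p = 1.25e-07). No count of Cd207 was found in monocytes, so that splenic CD8+ DCs were at least 306.0-fold higher, taking 3 counts over the group as the limit. In LN 77 counts of Cd207 in CD103+ DCs stood against 2 in CD11b+ DCs, a ratio of 36.6 with a counting interval of 10.1 to 302.1. Among the relatives of Cd209a, Cd209e had 261 counts in splenic CD8+ DCs and 0 in LN CD103+ DCs (at least 77.1-fold higher in spleen), and Cd209d 312 and 1 (a ratio of 277.8, counting interval 49.9 to 10970.0). Cd209b differed the other way, with 139 counts in LN CD103+ DCs and 4 in splenic CD8+ DCs (5.28, SE 1.30, adjusted p = 5.08e-04). Its LN CD103+ libraries were uneven, at 7.06 ± 5.97 CPM against 0.159 ± 0.276 CPM in splenic CD8+ DCs. Cd93, a receptor of the group XIV lectins, had 814 counts in LN CD11b+ and 2 in LN CD103+ DCs (a ratio of 381.5, counting interval 105.6 to 3150.0), and in monocytes it was at 136.8 ± 75.4 CPM. Counting intervals cover counting error only.

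In the organ comparisons 15 of the 19 differed in DC1, 7 higher and 8 lower in LN (45.6% of all genes differed), and 9 in DC2, 6 higher and 3 lower (33.1%). Monocytes differed from splenic CD8+ DCs in 11, 5 higher and 6 lower in monocytes (42.1% of all genes), and from splenic CD4+ DCs in 13, 6 higher and 7 lower (48.0%). They differed from LN CD103+ DCs in 14, 7 higher and 7 lower (53.2%), and from LN CD11b+ DCs in 7, 4 higher and 3 lower (47.8%). Thbd, which encodes thrombomodulin, was at 231.3 ± 47.3 CPM in monocytes and 6.76 ± 8.65 in splenic CD4+ DCs (5.12, SE 0.67, adjusted p = 1.72e-05). Olr1, the scavenger receptor for oxidised lipoprotein, had 325 counts in monocytes, 153 in splenic CD8+ DCs and 1 in splenic CD4+ DCs, so that monocytes exceeded the last by a ratio of 273.4 with a counting interval of 49.1 to 10800.0. The collectin Colec12 had 217 counts in monocytes and 0 in splenic CD8+ DCs (at least 74.0-fold higher), and the mannose receptor relative Mrc2 had 122 in splenic CD4+ DCs and 0 in monocytes (at least 44.9-fold higher in CD4+ DCs).

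The genes whose pattern was most like that of each member were found by Pearson's correlation of log2 CPM over the 15 libraries, among 10246 genes that reached a mean of 10 CPM or more in a subtype. These values are a description, since the libraries of a subtype share its mean. Ly75 was closest to Serpinb6b (r = 0.991) and Gm15512 (0.984). Serpinb6b, a serpin gene, had means of 777.1 CPM in LN CD103+, 335.9 in LN CD11b+, 124.1 in splenic CD8+ and 11.5 in splenic CD4+ DCs and no count in monocytes. Clec1a was closest to the lectin genes Clec9a (0.972) and Cd207 (0.936), and Clec7a to Abtb1 (0.974) and the endocytic receptor gene Lrp1 (0.972), which had a mean of 970.4 CPM in monocytes and at most 58.3 CPM in any DC subtype. Clec12a was closest to Flt1 (0.962) and Cmtm7 (0.941), Clec10a to Cds1 (0.963) and Pld1 (0.936), and Clec5a to the transcription factor gene Maf (0.944) and Aoah (0.938), which encodes a lipase that inactivates endotoxin. Cd209a was closest to Irf2bp2 and Abhd15 (both 0.954) and Mrc1 to Cfp, which encodes properdin (0.95), and Ptgs1 (0.936). Mgl2 had the least close neighbours, the chemokine gene Cxcl10 (0.938) and Ms4a7 (0.878). Within the 9 genes the highest correlation was between Cd209a and Mrc1 (0.90), followed by Clec10a and Clec5a (0.85), and the most negative were between Clec1a and Clec5a (-0.88) and between Clec7a and Ly75 (-0.82). Those of Clec12a with the other members lay between -0.43 and 0.38.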

How the data were processed

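RNA-seq of 15 libraries from 5 sorted mouse subtypes was used. The 9 genes and the gene lists were chosen with earlier results of these data known. Groups and replicate numbers came from the sample titles, and each library is a pool of 5 mice. The p values measure the spread between these libraries. For the deposited counts, the authors aligned Ion Torrent reads of at least 30 bases to mm10 with STAR 2.4.0j. Reads mapped at 1 place were assigned to Ensembl genes with featureCounts (Subread 1.5.2), unstranded, and a read over several genes was counted for each, without normalization. The deposited TPM values were computed by the authors from these counts and exon lengths. The file of counts by run gave the exon coordinates and summed to the deposited counts in all 15 libraries. Separate runs were listed for the monocyte libraries only.

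From the counts, CPM with TMM scaling (factors 0.883 to 1.1) were computed, and edgeR 4.0.16 quasi-likelihood tests were run in R 4.3.3 on the 14456 genes past a filter of over 1 CPM in 3 libraries or more, with 1 mean per subtype (10 residual degrees of freedom, common dispersion 0.0681) and Benjamini-Hochberg adjustment over all genes tested, at a threshold of 0.05. The fit was tested on simulated counts. Fold values are ratios of mean CPM, and log2 fold changes are those of the fit with its SE. The genes named were the 9 members, 7 signalling genes (Syk, Card9, Tyrobp, Hcst, Fcer1g, Ptpn6 and Ptpn11), the 2 genes per direction with the largest fitted change in each list and comparison (those printed are a part of these), and the 2 genes most correlated with each member. The alternatives were RLE size factors, no filter on low counts, DESeq2 1.42.0, limma 3.58.1 on log2(TPM + 1) and log2(TPM + 0.1), an added absolute log2 fold change of at least 1, a fit of the compared subtypes alone, the replicate number as a block and leaving out each library. Same-numbered libraries deviated from their group means together, with a correlation over 0.1 for all 3 numbers, in 4 of 10 pairs of subtypes (30 correlations from -0.035 to 0.375): splenic CD8+ with CD4+ DCs, LN CD103+ with CD11b+ DCs, and splenic CD4+ with each LN subtype. Sequences are from RefSeq (GRCm38.p6).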

Additional observations from a re-analysis of the deposited data

Results flagged for a closer look

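The lineage effect, DC1 minus DC2, differed between LN and spleen for 4 of the 9 genes by the interaction of the edgeR model, and these are the results singled out here. For Cd209a the interaction was -4.69, with DC1 minus DC2 differences of -6.10 in LN and -1.41 in spleen. For Clec10a it was -4.53, from -4.75 in LN and -0.22 in spleen. Both rest on the 14 counts that each of these genes had over the 3 LN CD103+ libraries. For Ly75 the interaction was -1.36, from 1.46 in LN and 2.82 in spleen, and for Clec12a it was -1.15, from 0.97 in LN and 2.13 in spleen, with 117 to 7547 and 122 to 1164 counts per DC library. All 4 kept their sign and their call under every alternative and without any 1 library.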

How the results depend on the processing

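The number of the 9 genes past the threshold stayed within 1.5 times its value in all 12 comparisons, without any 1 library and under every alternative run (the added fold change and the fit of the compared subtypes alone were not run for the test over all 5 subtypes together). Of 99 differences of single genes, 75 passed the threshold, and none of these changed sign in any setting. Without 1 library 8 of the 75 lost their call, as given beside each, and under the other alternatives 9 did. The added fold change removed Clec12a in LN CD103+ minus LN CD11b+, LN CD11b+ minus splenic CD4+ and monocytes minus LN CD103+ DCs. It also removed Clec7a in LN CD103+ minus splenic CD8+ DCs and Cd209a in monocytes minus splenic CD4+ DCs. In the fit of the compared subtypes alone, Clec12a (adjusted p = 0.101) and Clec1a (0.156) lost theirs in LN CD11b+ minus splenic CD4+ DCs. By limma on log2(TPM + 0.1), Mgl2 (0.089) and Cd209a (0.109) lost theirs in splenic CD8+ minus CD4+ DCs. Cd209a also lost it there in monocytes minus LN CD11b+ DCs (0.137). Mgl2 missed it by limma on log2(TPM + 1) too (0.058). Reversals touched only differences that had not passed the threshold. For LN CD103+ minus splenic CD8+ DCs (0.08 for Mgl2 and -0.41 for Clec5a), Mgl2 was at -0.12 by limma on log2(TPM + 1) and -0.60 on log2(TPM + 0.1), and Clec5a at 0.13 on log2(TPM + 0.1). For monocytes minus splenic CD8+ DCs, Mrc1 (-0.11) was at 0.048 on log2(TPM + 1) and 0.064 on log2(TPM + 0.1), and for monocytes minus LN CD11b+ DCs (-0.33) at 0.0036 on log2(TPM + 0.1). Leaving out 1 library moved Clec10a in CD8+ minus CD4+ DCs between -1.07 and 0.42, Clec7a in LN CD103+ minus CD11b+ DCs between -0.45 and 0.0094, Mgl2 and Clec5a in LN CD103+ minus splenic CD8+ DCs between -2.01 and 0.60 and between -1.14 and 1.51, and Clec7a in LN CD11b+ minus splenic CD4+ DCs between -0.33 and 0.27. It moved Mrc1 between -0.32 and 0.31 in monocytes minus splenic CD8+ DCs, between -0.71 and 0.10 in monocytes minus LN CD11b+ DCs and between -0.21 and 0.65 in LN CD11b+ minus splenic CD8+ DCs, Mgl2 in monocytes minus splenic CD4+ DCs between -0.36 and 1.06, and Clec1a between -0.34 and 0.85 in monocytes minus LN CD11b+ DCs and between -0.71 and 0.050 in the interaction.

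With the replicate number as a block, 8 of the 9 genes passed between splenic CD8+ and CD4+ DCs and 8 between LN CD103+ and CD11b+ DCs, as without it, and no call was lost in any comparison. The block added 4 calls, all between subtypes whose numbers were not shown to pair: Clec10a (1.08, adjusted p = 0.0161) in monocytes minus LN CD11b+ DCs, Clec12a in LN CD103+ minus splenic CD8+ DCs (-0.46, adjusted p = 0.0427) and in monocytes minus splenic CD8+ DCs (0.47, adjusted p = 0.04), and Ly75 (0.62, adjusted p = 0.0319) in LN CD11b+ minus splenic CD8+ DCs. The number of genes past the threshold for the interaction, 4 of 9, was 4 to 6 under the other alternatives and 4 to 6 without 1 library, with Clec5a and Mgl2 added as given above, and the cause was not tested. With 14 to 25 counts over 3 libraries for Cd209a, Clec10a, Mgl2 and Clec5a in some DC1 subtypes, the values there rest on few reads. With TPM in place of CPM, some of the summed marker levels moved by more than the spread between libraries.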
